A study of Mus musculus with 12 samples.

Results

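The miR-23/27/24 clusters are a pair of related microRNA genes, each giving a miR-23, a miR-27 and a miR-24 from one transcript. Within the clusters every member on the panel was taken by name, whatever its values: the raw count table held mmu-miR-23a, mmu-miR-23b, mmu-miR-24, mmu-miR-27a and mmu-miR-27b (mmu for mouse, left out hereafter), which are 5 of its 566 mouse miRNA probes. The panel held 0 probes for the star forms of these miRNAs. Small RNA came from isolated optic nerves of male C57Bl/6 mice, and each of the 4 groups had 3 samples. Control nerves received no agent, OGD nerves underwent oxygen-glucose deprivation, and the remaining groups underwent the same deprivation with a drug, either MS-275 or CX-4945. The first is an inhibitor of class I histone deacetylases and the second of the kinase CK2. Neither drug was given without deprivation, so each drug is compared within deprived nerves, and the sources used here give neither doses, durations, the age of the mice nor how many nerves made a sample. Nothing in the labels says that the 3 samples of a group came from separate animals, so each p-value measures the spread between these samples, which may be technical.

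A microRNA is a short RNA that guides Argonaute to messenger RNAs, mostly by pairing through its seed, and lowers their translation or stability. The miR-23a cluster is an intergenic gene and the miR-23b cluster lies inside a protein-coding gene. Members of both are widely expressed and are studied most in blood vessels, where miR-23 and miR-27 act in endothelial cells, and in leukocytes. In glia, miR-23 represses lamin B1 and favours oligodendrocyte differentiation. miR-27 is known for repressing genes of fat cell formation and Sprouty genes, and miR-24 for repressing cell cycle genes.

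The mature sequences show which members a seed can tell apart and which a probe may not. They are RefSeq's, on build GRCm38.p6, written 5′ to 3′ with the seed, bases 2 to 8, in capitals.
miR-23a-3p: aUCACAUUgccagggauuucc
miR-27a-3p: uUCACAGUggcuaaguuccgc
miR-27b-3p: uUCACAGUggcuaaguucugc
miR-24-3p: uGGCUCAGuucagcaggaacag
miR-27a and miR-27b shared their seed and 20 of 21 bases, and differed by C19U, counted from 1 at the 5′ end of miR-27a. The seed of miR-23a differed from theirs, and that of miR-24 from all 3. miR-24 has the same mature sequence in both clusters, so its single probe counts the sum of both genes. miR-23a lies at chr8:84208563-84208583, miR-27a at chr8:84208727-84208747 and one miR-24 copy at chr8:84208875-84208896, all on the plus strand. The 3 hairpins of that cluster, Mir23a, Mir27a and Mir24-2, span 404 bases. miR-27b lies at chr13:63300760-63300780 and the other miR-24 copy at chr13:63301251-63301272, also on the plus strand. The hairpins Mir23b, Mir27b and Mir24-1 span 792 bases within the protein-coding gene Aopep (chr13:62964893-63326096), and the table used does not say whether in exon or intron. Both miR-24 hairpins overlap an annotated Mir3074 hairpin.

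The nCounter assay counts a fluorescent barcode for each probe bound to its target, without amplification, after a tag has been ligated to the small RNA. The total count over the 599 miRNA probes, 33 viral ones included, ran from 255154 to 542933 per lane. The limit of detection of a lane, taken from its 8 negative controls as their mean and 2 SD added, lay between 32.0 and 60.6 counts. 217 probes exceeded it in at least 3 of the 12 lanes and were tested. All 5 members were among them and exceeded the limit in every lane, by at least 107-fold for miR-27a, 60.0-fold for miR-23a, 22.3-fold for miR-23b, 2.44-fold for miR-27b and 2.31-fold for miR-24. Counts of different probes do not rank the miRNAs, since probes capture and ligate their targets with different yield, and near-identical probes such as those of miR-27a and miR-27b may share signal. Intervals and limits on single lanes cover counting error only, and replicate lanes differed by at least 9.93 times counting error (chi-square over degrees of freedom). The tissue was whole nerve, so a lower count from fewer cells of a type and from less RNA per cell cannot be told apart.

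The lanes also differed in ligation, and this stands before the results because 2 members moved with it in the main fit, though not in every alternative. The geometric mean of the 3 positive ligation controls ran from 1109 to 3787 counts, a 3.41-fold range, against a 1.39-fold range for the 6 positive hybridisation controls. It was 1386, 1422 and 2369 in Control and 1751, 1109 and 2423 in OGD. It was 1667, 2793 and 3787 in OGD+CX-4945 and 3155, 2991 and 2914 in OGD+MS-275. Every MS-275 lane lay above every Control and OGD lane, so ligation yield and MS-275 cannot be told apart by group alone.

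No member passed the threshold in any of the 6 comparisons between groups (edgeR's quasi-likelihood test, Benjamini-Hochberg adjusted p over the 217 probes, threshold 0.05). The member nearest to it was miR-27a, whose normalised count was lower in both drug groups than in OGD. In MS-275 all 3 of its lanes lay below every Control and OGD lane. miR-24 was higher in MS-275 than in every Control lane, and miR-27b was higher in every OGD lane than in every Control lane. miR-23a and miR-23b had overlapping groups in all comparisons.

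**Figure D1:**
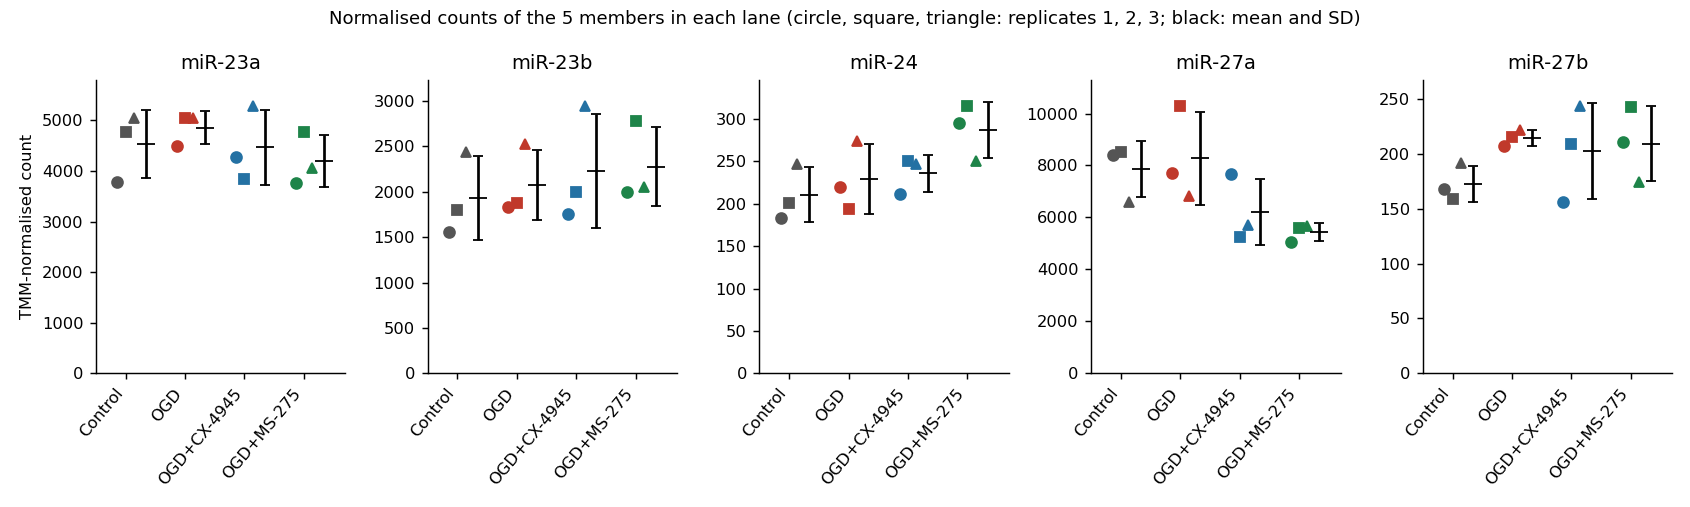
TMM-normalised counts (linear axis from 0, 1 panel per member) in each of the 12 lanes by group; points are lanes, the bar is the group mean and the error bar its SD over 3 lanes. miR-27a has group means of 7851 and 8276 in Control and OGD and of 5437 in OGD+MS-275, while the groups of miR-23a and miR-23b overlap.

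miR-27a comes from the middle hairpin of the miR-23a cluster. Its TMM-normalised counts were 8419, 8527 and 6606 in Control and 7722, 10273 and 6833 in OGD. With CX-4945 they were 7670.4, 5247 and 5723, and with MS-275 they were 5054, 5605 and 5653. The 3 MS-275 lanes and CX-4945 replicates 2 and 3 were the 5 lowest of the 12 lanes, and CX-4945 replicate 1 lay within the range of Control and OGD. The means were 7851 ± 1079 in Control, 8276 ± 1786 under OGD alone, 6214 ± 1284 with CX-4945 and 5437 ± 333 with MS-275 (SD, n = 3).

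Against OGD, miR-27a with MS-275 had a log2 fold change of -0.61 (SE 0.17, 95% interval -0.97 to -0.24). Its unadjusted p was 0.0028 and its adjusted p 0.149 in edgeR's test, so the difference did not pass. 10.6% of the tested probes lay, like miR-27a, wholly lower in MS-275 than in OGD, and 0.461% passed the threshold in either direction. Against Control the log2 fold change was -0.53 (SE 0.17, adjusted p = 0.1001), where 13.4% of probes lay wholly lower and 1.38% passed. With only the Control and MS-275 lanes in edgeR's fit, this comparison passed (log2 fold change -0.50, adjusted p = 0.0348). In that fit 19 probes passed, miR-27a among them. A block of 3 sets of nearby title numbers was also added to edgeR's fit. In that test miR-27a passed against OGD (-0.70, adjusted p = 0.0245) and against Control (-0.62, adjusted p = 0.0186). With this block 24 probes passed against OGD and 37 against Control, so these calls were less rare than in the main fit. What the title numbers stand for is not given. With the ligation controls as a covariate in edgeR's fit, the difference from OGD was -0.19 (SE 0.12, adjusted p = 0.673) and that from Control -0.13 (adjusted p = 0.718). The difference from OGD stayed below 0 under each of the 14 alternative settings, between -1.11 when counts were scaled by the ligation controls and -0.04 in the deposited processed values.

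With CX-4945, miR-27a differed from OGD by -0.41 on the log2 scale (SE 0.17, 95% interval -0.77 to -0.05), with an unadjusted p of 0.0276 and an adjusted p of 0.628 in edgeR's test. 0% of probes passed the adjusted threshold in this comparison and 7.37% the unadjusted one. With the ligation covariate the difference was -0.11 (SE 0.11, adjusted p = 0.756). The MS-275 and CX-4945 groups differed by -0.19 (SE 0.17, 95% interval -0.55 to 0.17), so a difference of either sign was not resolved. For any difference among the groups, miR-27a had the eighth smallest p-value of the 217 probes (adjusted p = 0.221 in edgeR's test), where 0.461% of probes passed.

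miR-23a, from the same transcript, had counts of 3783, 4765 and 5054 in Control and 4494, 5040.4 and 5047 in OGD. They were 4280.0, 3841 and 5278 with CX-4945 and 3761, 4767 and 4069 with MS-275. The groups overlapped. The largest of its 6 differences was MS-275 against OGD, a log2 fold change of -0.21 (SE 0.15, 95% interval -0.53 to 0.11, adjusted p = 0.413 in edgeR's test).

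miR-24 had counts of 184, 201 and 247 in Control and 219, 194 and 275 in OGD. They were 211, 250.2 and 246 with CX-4945 and 296, 315 and 250.1 with MS-275. The lowest MS-275 lane lay above the highest Control lane by a small margin and below the highest OGD lane. The group means were 211 ± 32.6 in Control, 229 ± 41.2 under OGD alone, 236 ± 21.4 with CX-4945 and 287.0 ± 33.4 with MS-275 (SD, n = 3), and the lanes of neighbours in this order overlapped. MS-275 exceeded Control by 0.44 on the log2 scale (SE 0.17, 95% interval 0.08 to 0.81), with an unadjusted p of 0.0199 and an adjusted p of 0.127 in edgeR's test. 15.2% of probes lay wholly higher in MS-275 than in Control, so this is no rare pattern. The difference was 0.15 (SE 0.17, adjusted p = 0.737) with the ligation covariate in edgeR's fit. Against OGD the difference was 0.32 (SE 0.17, adjusted p = 0.280), and it was -0.10 when counts were scaled by the ligation controls.

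miR-23b, from the Aopep cluster, had counts of 1552, 1803 and 2442 in Control and 1836, 1873 and 2522 in OGD. They were 1753, 2002 and 2941 with CX-4945 and 1999.8, 2783 and 2049.9 with MS-275. In Control, OGD and CX-4945, the highest lane was also that group's highest lane for ligation. None of its 6 differences passed the unadjusted threshold, and the largest was 0.24 for MS-275 against Control (SE 0.22, 95% interval -0.23 to 0.71).

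miR-27b, from the same gene, had counts of 168, 159 and 192 in Control and 207, 216 and 222 in OGD. They were 156, 209 and 244 with CX-4945 and 211, 243 and 175 with MS-275. Every OGD lane lay above every Control lane, a pattern of 4.61% of the tested probes, and the drug groups overlapped both. The means were 173 ± 16.7 in Control and 215 ± 7.19 in OGD (SD, n = 3). The difference of 0.31 on the log2 scale (SE 0.18, 95% interval -0.07 to 0.69) had an adjusted p of 0.764 in edgeR's test. It was again 0.31 with the ligation covariate, and between 0.04 and 0.41 over the 14 alternatives.

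Between OGD and Control, all 5 members had a log2 fold change above 0, with a median of 0.10 beside 0.01 for all tested probes, but 3 of the 5, miR-23a, miR-23b and miR-27a, were below 0 when counts were scaled by the positive controls or by the mRNA probes. None passed, even without adjustment, where 5.53% of probes had an unadjusted p under 0.05. CX-4945 against OGD had 2 of 5 members above 0 (median -0.08, all probes 0.03), and MS-275 against OGD likewise 2 of 5 (median -0.04, all probes 0.03). In MS-275 against OGD, 1 member and 20.7% of probes had an unadjusted p under 0.05. In MS-275 against Control these were 2 members and 23% of probes, in CX-4945 against OGD 1 member, in CX-4945 against Control 0 members and 8.29% of probes, and in MS-275 against CX-4945 0 members and 4.15% of probes. DESeq2 and limma-voom likewise called 0 members in each comparison. The 95% intervals of all 5 members in all 6 comparisons excluded a 2-fold change in either direction at this scaling. The comparisons with OGD share the OGD lanes, and those with Control the Control lanes.

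**Figure D2:**
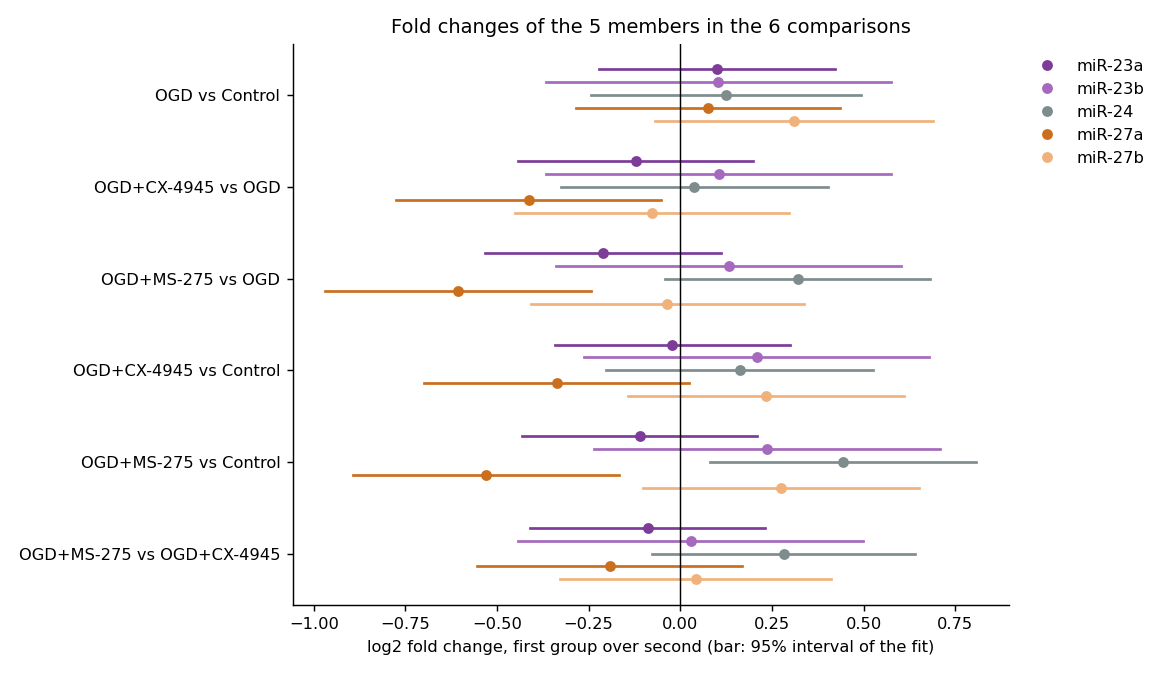
Log2 fold change of each member (points, edgeR with TMM scaling) with its 95% interval (lines) in each comparison; 0 is no difference. The miR-27a intervals for OGD+MS-275 against OGD (-0.97 to -0.24) and against Control (-0.89 to -0.17) exclude 0 before adjustment, and no difference passed after it.

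Within the groups, the members followed the ligation controls in opposite directions. The slope, the log2 change in normalised count per doubling of the ligation controls with group means in edgeR's fit, was -0.46 for miR-27a (SE 0.08, adjusted p = 0.0073) and 0.53 for miR-23b (SE 0.14, adjusted p = 0.0287). The slopes of miR-24, 0.35 (SE 0.12, adjusted p = 0.0673), miR-27b, 0.30 (SE 0.14, adjusted p = 0.154), and miR-23a, 0.15 (SE 0.12, adjusted p = 0.418), did not pass in that test. The miR-24 slope passed in edgeR's test with total-count scaling (0.40, adjusted p = 0.0407), with positive-control scaling (0.92, adjusted p = 0.0035) and with the ligation controls divided by the positive controls (0.35, adjusted p = 0.0268). With positive-control scaling 117 of the 217 probes passed. With TMM scaling 11.5% of the tested probes passed, 6.91% with a negative slope and 4.61% with a positive one. The median slope of all probes was 0.04, with 10th and 90th percentiles of -0.42 and 0.39, so miR-27a lay below and miR-23b above the central range. miR-27a was 17th from the most negative of the 217 slopes, and miR-23b 208th.

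The sign of these slopes is relative to the scaling. With counts scaled by the positive hybridisation controls the median slope of all probes was 0.62, and those of miR-23b and miR-27a were 1.11 (SE 0.24) and 0.12 (SE 0.24). In that scaling miR-27a did not fall with ligation, and its slope was still the lowest of the members. miR-23a, miR-24 and miR-27b had slopes of 0.73, 0.92 and 0.89 there. With the block of 3 title-number sets in edgeR's fit neither call held, at -0.69 for miR-27a (adjusted p = 0.0921) and 0.11 for miR-23b (adjusted p = 0.789). The calls also rested on single lanes. Without OGD replicate 3 or without CX-4945 replicate 1 the miR-27a slope had an adjusted p of 0.0818 or 0.0819 in edgeR's test, and 0 members passed. The miR-23b slope missed the threshold in these cases too, and without Control replicate 1, 2 or 3 or CX-4945 replicate 3, with adjusted p from 0.05004 to 0.135 in edgeR's test.

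**Figure D3:**
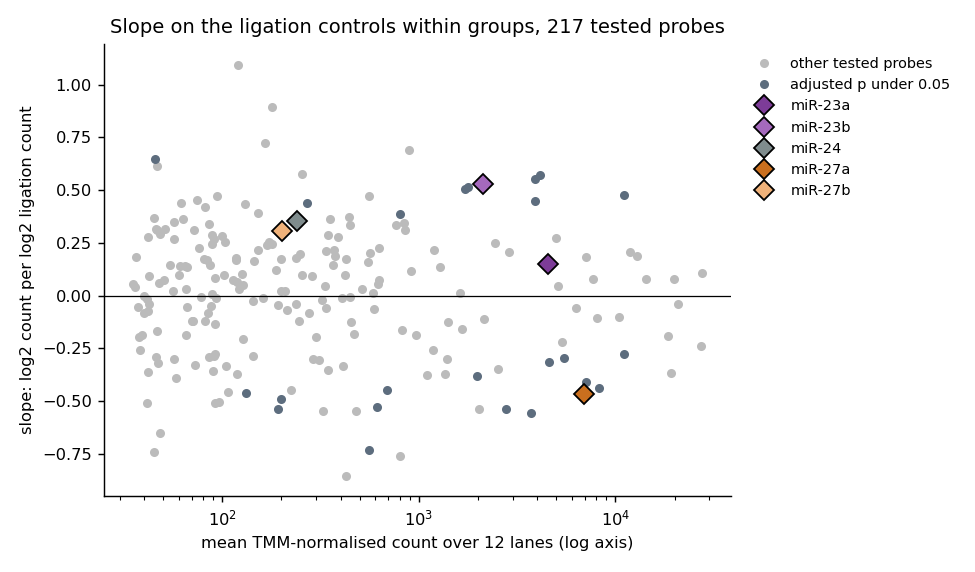
Slopes of the 217 tested probes on the ligation controls within groups (vertical axis, log2 count per log2 ligation count) against mean TMM-normalised count (horizontal log axis), 1 point per probe; diamonds are the 5 members and dark points the probes past the threshold. miR-27a (-0.46) lies low and miR-23b (0.53) high, with miR-23a (0.15) near the middle.

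The lanes fell on both sides of a gap in ligation, with 5 lanes up to 1751 counts and 7 lanes from 2369 counts, a division noticed after the values were seen. The 5 lower lanes were Control replicates 1 and 2, OGD replicates 1 and 2 and CX-4945 replicate 1. Replicate 3 of Control, OGD and CX-4945, with title numbers of 1140 to 1145, was the highest of its group in ligation. MS-275 had no lane among these title numbers. Apart from CX-4945 replicate 2, the higher lanes were these and the MS-275 lanes, so ligation cannot be told apart from title number and group at the gap. The raw counts of miR-27a overlapped across the gap, at 5265 to 8104 in the higher lanes and 6465 to 8379 in the lower ones. After TMM scaling all 7 higher lanes had less miR-27a than each of the 5 lower lanes. Its log2 normalised counts were 12.30 to 12.74 against 12.91 to 13.33. The opposite held for miR-24, with 7.95 to 8.30 in the higher lanes against 7.52 to 7.78. It also held for miR-23b, with 10.97 to 11.52 against 10.60 to 10.87. miR-23a (11.88 to 12.37 against 11.89 to 12.30) and miR-27b (7.45 to 7.93 against 7.29 to 7.75) overlapped across the gap. The share of all tested probes that separate at this gap was not counted, so the separation cannot be called particular to these members.

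Because the lanes cluster in this way, no correlation of a member with ligation over all lanes is given as a result. The slopes above rest on the same clustered lanes. Among the 7 higher lanes alone, the log2 count of miR-27a correlated with log2 ligation at r = -0.64 (exact permutation p = 0.122, adjusted p = 0.611 over 5 members; Spearman rho = -0.50, exact p = 0.267). For miR-27b r was 0.46, for miR-23b 0.24, for miR-24 0.06 and for miR-23a -0.07, with exact permutation p from 0.311 to 0.904. None of these passed, and 5 lanes are too few for a correlation on the lower side. With 7 lanes this does not show that the members did not vary with ligation there. Group means were kept in these correlations and lanes were permuted across the 4 groups, so ligation and group cannot be told apart in them.

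**Figure D4:**
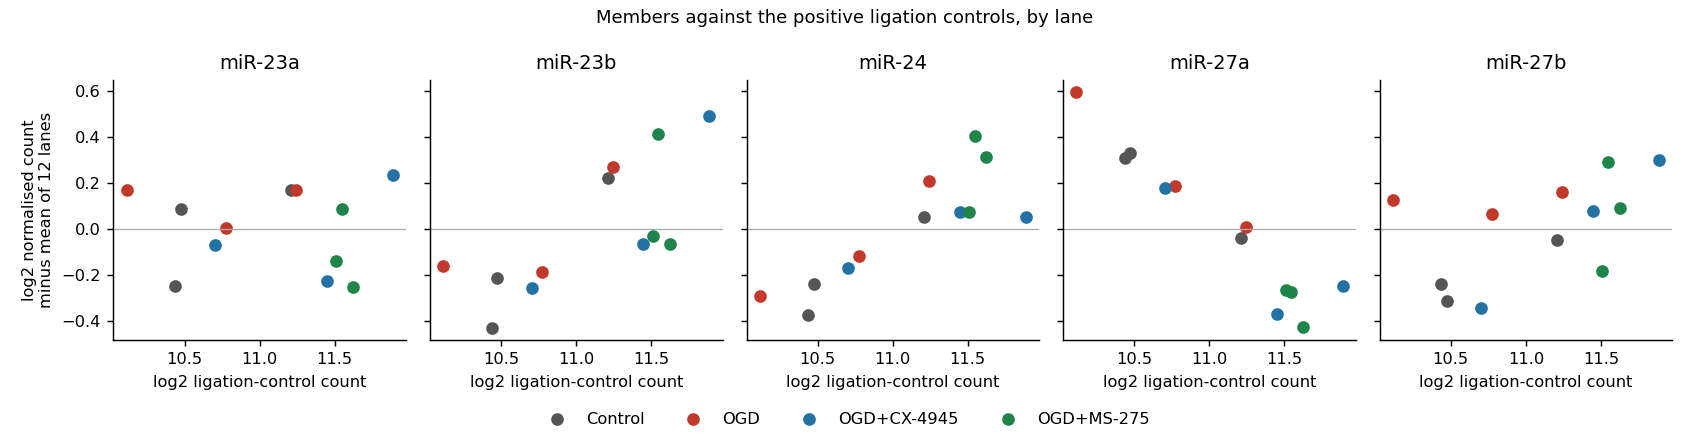
Log2 normalised count of each member, less its mean over 12 lanes, against the log2 geometric mean of the 3 positive ligation controls, 1 point per lane, coloured by group. Lanes fall on both sides of a gap between 1751 and 2369 counts. At TMM scaling miR-27a is lower and miR-24 and miR-23b are higher in all 7 lanes to the right of it. The raw counts of miR-27a overlap across the gap.

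Members of one transcript were then set against each other within each lane, a measure that no scaling of the lane can change. The miR-23a to miR-27a count ratio ran from 0.449 to 0.765 in Control, from 0.491 to 0.739 in OGD, from 0.558 to 0.922 with CX-4945 and from 0.720 to 0.850 with MS-275. Its mean log2 value was 0.37 higher with MS-275 than in OGD (exact permutation test, two-sided p = 0.20, adjusted p = 0.48 over 12 tests), and the groups overlapped. The miR-23b to miR-27b ratio ran from 8.67 to 12.7 over all lanes, and differed by at most 0.20 on the log2 scale between the groups compared. The largest such difference, OGD against Control, had an exact permutation p of 0.30.

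The miR-27a to miR-27b ratio ran from 34.5 to 53.5 in Control, from 30.8 to 47.6 in OGD, from 23.5 to 49.1 with CX-4945 and from 23.1 to 32.4 with MS-275. MS-275 was 0.54 lower than OGD on the log2 scale, with an exact permutation p of 0.20. The miR-23a to miR-23b ratio was the only one of the 4 whose MS-275 and OGD lanes did not overlap, at 1.71 to 1.99 against 2.001 to 2.69. That difference of -0.35 had an exact permutation p of 0.10, the smallest that 3 against 3 allows, and an adjusted p of 0.48, so none of the 12 ratio tests could pass or passed. 24% of probes did not overlap between MS-275 and OGD in either direction, which is the nearest background to that count.

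The same ratios separated the lanes at the gap in ligation. All 7 higher lanes had a log2 miR-23a to miR-27a ratio of -0.47 to -0.12, above the -1.15 to -0.78 of the 5 lower lanes. The log2 miR-27a to miR-27b ratio was 4.53 to 5.11 in the higher lanes and 5.22 to 5.74 in the lower ones. The log2 miR-23a to miR-23b ratio was 0.78 to 1.05 in the higher lanes and 1.29 to 1.43 in the lower ones. The miR-23b to miR-27b ratio overlapped, at 3.24 to 3.67 against 3.12 to 3.500. Thus miR-23a and miR-27a of one transcript separated from each other across the gap, while miR-23b and miR-27b of the other did not. How often other pairs of probes separate there was not counted, and this contrast between transcripts was not tested. Among the 7 higher lanes the 4 ratios had r of 0.66, -0.15, -0.73 and -0.74 with ligation, in the order miR-23a to miR-27a, miR-23b to miR-27b, miR-23a to miR-23b and miR-27a to miR-27b, with exact permutation p adjusted over 4 of 0.157, 0.762, 0.123 and 0.123. Spearman's rho there was -0.86 for miR-23a to miR-23b (exact permutation p = 0.0238) and -0.79 for miR-27a to miR-27b (exact permutation p = 0.0480), both before adjustment. Group means were kept in these correlations too, with lanes permuted across groups.

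**Figure D5:**
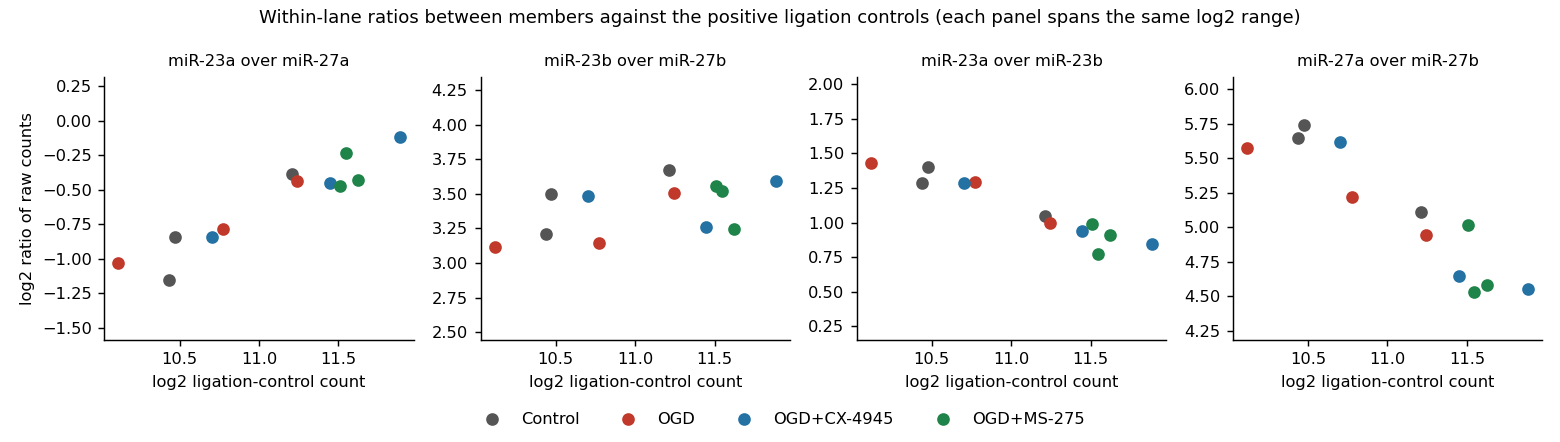
Log2 ratio of counts within a lane for each of the 4 member pairs against the log2 geometric mean of the positive ligation controls, 1 point per lane, coloured by group. The miR-23a to miR-27a ratio is -1.15 to -0.78 in the 5 lanes left of the gap and -0.47 to -0.12 in the 7 lanes right of it; the miR-23b to miR-27b ratio overlaps.

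At TMM scaling the members did not vary as 1 unit across lanes. With group means removed, over 12 lanes, the Pearson r of log2 normalised counts between miR-27a and miR-23a was -0.05, between miR-27a and miR-23b -0.55, between miR-27a and miR-27b -0.55 and between miR-27a and miR-24 -0.83. miR-23a and miR-23b had r = 0.83, and miR-23b had r = 0.78 with both miR-24 and miR-27b. These are descriptions, with no test, since the points share their lane's ligation and scaling.

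By the same measure, the probes most like each member came from outside the clusters except in 1 case. miR-27a was closest to miR-30c (r = 0.99), miR-99a (0.94) and miR-22 (0.94). miR-24 was closest to miR-30b (0.96), miR-103 (0.94) and miR-484 (0.93). miR-23b was closest to miR-26b (0.97), miR-219 (0.97) and miR-100 (0.95), and miR-27b to miR-99b (0.97), miR-32 (0.89) and miR-26b (0.83). miR-23a was closest to miR-190 (0.91), to its paralog miR-23b (0.83) and to miR-100 (0.81).

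Markers of cells in which the clusters are known were compared between MS-275 and OGD beside the lower miR-27a. Of 5 endothelial markers 4 were tested, all but miR-222. Their summed normalised count was 10330 to 10573 with MS-275 and 11526 to 13621 in OGD, without overlap, and most of it was miR-126-3p. The sum does not describe the list, since 3 of the 4 were higher with MS-275 and the median log2 fold change was 0.21. miR-126-3p had a mean of 9538 with MS-275 and 11960.5 in OGD (log2 fold change -0.33, SE 0.13, adjusted p = 0.209 in edgeR's test). The other markers differed by 0.10 (miR-126-5p), 0.33 (miR-130a) and 0.38 (miR-221). All 4 leukocyte markers were tested, and their sum was 2272 to 2644 with MS-275 and 2824 to 3668 in OGD, again without overlap. Most of it was miR-150, with a mean of 1984 normalised counts over all lanes. Of the 4, 0 were higher with MS-275 (median log2 fold change -0.14). Beside this, 10.6% of all tested probes lay wholly lower in MS-275 than in OGD. The 4 oligodendrocyte markers summed to 27376 to 36110 and 30038 to 34836, which overlap, so the nerve's main glial lineage was present in both groups. The 5 neuronal markers summed to 10121 to 11160.1 and 9404 to 10714, the 2 smooth muscle and pericyte markers to 1445 to 1916 and 1208 to 1448, and the 3 erythroid markers to 951 to 1191 and 915 to 1099.5, all overlapping. In OGD against Control, where miR-27b was higher, the erythroid sum was 915 to 1099.5 against 1362 to 1482, without overlap. Most of it was miR-451, with a mean of 962 over all lanes, and 0 of the 3 markers were higher in OGD (median log2 fold change -0.48). The share of all tested probes wholly lower in OGD than in Control is not given here, so this separation cannot be called unusual. No marker of these lists passed the threshold in either comparison. Among markers picked after their values were seen, miR-126-3p had a slope of -0.28 on the ligation controls (adjusted p = 0.0426 in edgeR's test). In that test the leukocyte marker miR-150 had -0.38 (adjusted p = 0.0257), the oligodendrocyte miR-219 0.48 (adjusted p = 0.0469) and the neuronal miR-129-3p 0.51 (adjusted p = 0.0257). Of all tested probes 11.5% passed in either direction. The other leukocyte markers did not pass, at 0.14 (miR-142-3p), -0.55 (miR-142-5p) and -0.07 (miR-223). The other oligodendrocyte markers did not either, at 0.08 (miR-338-3p), 0.13 (miR-338-5p) and -0.12 (miR-138). Nor did the other neuronal ones, at 0.08 (miR-124), -0.21 (miR-128), 0.47 (miR-129-5p) and -0.06 (miR-218). The other 3 endothelial markers did not pass, with slopes of 0.37 for miR-126-5p, from the same hairpin as miR-126-3p (adjusted p = 0.0673 in edgeR's test), 0.05 for miR-130a and 0.02 for miR-221. The part of these cells in the miR-27a and miR-27b values was not tested.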

How the data were processed

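Small RNA of 12 optic nerve samples was read on an nCounter miRNA panel. Per the file headers, the deposited main table holds the raw barcode count of each probe in each lane, and 1 unnamed row was dropped. A further table holds the authors' processed signal, whose making is not given in the sources used here. Its values over 20 equalled, to within 0.0230%, the raw count less the negative controls' median, multiplied by a lane factor of 0.744 to 1.44. These signals served only as an alternative, on a log2 scale made here from the deposited signal.

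Groups came from the agent field of the labels. The clusters, and so their members, and the lists of markers were chosen with earlier results of these data known; within the clusters the members follow from their names. The rule for named miRNAs took the 5 members, their star forms and the 3 probes most like each member by Pearson r over lanes with group means removed. Other miRNAs named were chosen after their values were seen. Counts were tested with edgeR 4.0.16 (quasi-likelihood, TMM, robust) in R 4.3.3, all 12 lanes in 1 fit, with Benjamini-Hochberg adjustment over 217 probes. The common biological coefficient of variation was 16.6%. The fit was tested on simulated data. Slopes used the log2 geometric mean of the positive ligation controls beside group means. Ratios were compared by exact permutation in scipy 1.17.1. Alternatives were DESeq2 1.42.0, limma 3.58.1 (voom), other scalings, filters, background subtraction, a ligation covariate, blocks of title numbers, and each lane left out. Sequences and positions are RefSeq's (GRCm38.p6), and the files give no coordinates.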

Additional observations from a re-analysis of the deposited data

How the results depend on the processing

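Each value below is a log2 fold change of the named member, in the order comparison, member, value, unless a slope or correlation is named. None of the listed group differences passed the threshold unless stated, and the cause of a change was not tested. For some scalings that move all probes, the median over all probes is given as a description. DESeq2 turned CX-4945 vs OGD for miR-24 (-0.0044). Scaling by the total miRNA count turned MS-275 vs OGD for miR-27b (0.074), and miR-23a in CX-4945 vs Control (0.029) and MS-275 vs Control (0.012). Scaling by the ligation controls moved the median of all probes to -0.26 in CX-4945 vs OGD, -0.42 in MS-275 vs OGD and -0.46 for the slope. It turned miR-23b in CX-4945 vs OGD (-0.18), MS-275 vs OGD (-0.30), CX-4945 vs Control (-0.0076), MS-275 vs Control (-0.12) and MS-275 vs CX-4945 (-0.11). It turned miR-24 in CX-4945 vs OGD (-0.24), MS-275 vs OGD (-0.10) and CX-4945 vs Control (-0.046), miR-27b in CX-4945 vs Control (-0.0097), MS-275 vs Control (-0.089) and MS-275 vs CX-4945 (-0.079), and the slopes of miR-23a (-0.34), miR-24 (-0.15) and miR-27b (-0.18). In this setting the counts are divided by the same controls on which the slope is taken. That lowers every slope relative to unscaled counts by construction, so the turned slopes and their median are no test. Scaling by the positive controls moved these medians to 0.39, 0.47 and 0.62. It turned OGD vs Control for miR-23a (-0.021), miR-23b (-0.011) and miR-27a (-0.051), CX-4945 vs OGD for miR-23a (0.27) and miR-27b (0.32), MS-275 vs OGD for miR-23a (0.24) and miR-27b (0.43), miR-23a in CX-4945 vs Control (0.25) and MS-275 vs Control (0.22), and the slope of miR-27a (0.12). Scaling by the mRNA probes moved the medians of CX-4945 and MS-275 vs OGD to 0.26 and 0.54. It turned OGD vs Control for miR-23a (-0.033), miR-23b (-0.032) and miR-27a (-0.083), CX-4945 vs OGD for miR-23a (0.14) and miR-27b (0.18), MS-275 vs OGD for miR-23a (0.29) and miR-27b (0.48), miR-23a in CX-4945 vs Control (0.10) and MS-275 vs Control (0.26), MS-275 vs CX-4945 for miR-23a (0.16) and miR-27a (0.062), and the slope of miR-27a (0.0013). The processed values moved the medians of OGD vs Control, CX-4945 vs OGD and MS-275 vs OGD to -0.33, 0.49 and 0.71. They turned OGD vs Control for miR-23a (-0.17), miR-23b (-0.16), miR-24 (-0.19) and miR-27a (-0.21), CX-4945 vs OGD for miR-23a (0.25) and miR-27b (0.30), MS-275 vs OGD for miR-23a (0.33) and miR-27b (0.54), miR-23a in CX-4945 vs Control (0.082), MS-275 vs Control (0.17) and MS-275 vs CX-4945 (0.085), and the slope of miR-27a (0.036). Without a filter miR-27b turned in CX-4945 vs OGD (8.0e-04) and MS-275 vs OGD (0.078), and miR-23a in CX-4945 vs Control (0.0066), which also turned over probes above the limit in all lanes (0.018). Subtracting the negative controls turned miR-23b in MS-275 vs OGD (-1.3e-04) and MS-275 vs CX-4945 (-0.022), miR-23a in CX-4945 vs Control (0.030) and its slope (-0.018). The ligation covariate turned miR-23b in CX-4945 vs OGD (-0.25), MS-275 vs OGD (-0.31), CX-4945 vs Control (-0.14), MS-275 vs Control (-0.19) and MS-275 vs CX-4945 (-0.053), miR-24 in CX-4945 vs OGD (-0.17) and CX-4945 vs Control (-0.058), and miR-27b in MS-275 vs CX-4945 (-0.0044).

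The number of members whose slope passed was 2, beside 25 of all 217 probes. It was 1 with mRNA-probe scaling (10 probes), no filter (12 of 599), subtraction (33) or 2 blocks of title numbers (25). It was also 1 with ligation-control scaling (85 probes), where dividing by the same controls lowers every slope by construction. It was 3 with total-count scaling or the ligation controls divided by the positive controls (miR-24 added). It was 4 with positive-control scaling, where 117 of all 217 probes passed. It was 0 with 3 title blocks (0 probes) or the processed values (7). No lanes share a title number, so the blocks are sets of nearby numbers, which pair no samples per the labels: deviations from group means correlated at a mean of 0.19 over 18 pairs of lanes in the same set, from -0.61 to 0.56, and at -0.09 over 36 other pairs. With 3 such blocks miR-27a passed in MS-275 vs OGD (-0.70, adjusted p = 0.0245 in edgeR's test) and vs Control (-0.62, adjusted p = 0.0186). So did miR-24 vs Control (0.54, adjusted p = 0.0280 in edgeR's test). Thus 1 member passed vs OGD, beside 24 of all probes, and 2 vs Control, beside 37. For any difference 1 member, miR-27a, passed (adjusted p = 0.0426 in edgeR's test), beside 18 of all probes. The 3 blocks turned miR-27b in MS-275 vs OGD (0.041), miR-23a in MS-275 vs CX-4945 (0.0094) and the slope of miR-23a (-0.23). With only the groups compared, 1 member passed in MS-275 vs Control, beside 19 of all probes.

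Correlations of members with ligation over all 12 lanes, group means removed, were 0.37 for miR-23a, 0.78 for miR-23b, 0.83 for miR-24, -0.92 for miR-27a and 0.66 for miR-27b, and are given only to show what moves them, since the lanes cluster. With title sets removed they were -0.41, 0.19, 0.59, -0.93 and 0.42. Without the 2 farthest lanes the last 4 were 0.81, 0.74, -0.87 and 0.82. With positive-control scaling miR-23a had 0.76 and miR-27a 0.22. In the 7 higher lanes all 5 were -0.068, 0.24, 0.056, -0.64 and 0.46, but there group means were kept, so these are not like for like.

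Leaving out each lane in turn, OGD vs Control ran from -0.015 to 0.19 for miR-23a, -0.060 to 0.31 for miR-23b, -0.027 to 0.26 for miR-24 and -0.11 to 0.20 for miR-27a. CX-4945 vs OGD ran from -0.19 to 0.27 for miR-23b, -0.064 to 0.19 for miR-24 and -0.28 to 0.078 for miR-27b. MS-275 vs OGD ran from -0.037 to 0.30 for miR-23b and -0.15 to 0.078 for miR-27b. CX-4945 vs Control ran from -0.17 to 0.076 for miR-23a and -0.061 to 0.41 for miR-23b. MS-275 vs CX-4945 ran from -0.19 to 0.10 for miR-23a, -0.14 to 0.34 for miR-23b and -0.11 to 0.26 for miR-27b. The log2 ratios in OGD vs Control ran from -0.14 to 0.25 for miR-23a to miR-27a and from -0.10 to 0.11 for miR-23a to miR-23b. Between 0 and 1 members passed in MS-275 vs Control (1 without CX-4945 replicate 1, miR-27a, adjusted p = 0.0473 in edgeR's test). Without that lane 13 of all probes passed there. Between 0 and 2 slopes passed, with 0 without OGD replicate 3 or CX-4945 replicate 1, and 1 without Control replicate 1, 2 or 3 or CX-4945 replicate 3. The correlations ran from 0.69 to 0.87 for miR-23b, 0.76 to 0.89 for miR-24, -0.97 to -0.88 for miR-27a and 0.42 to 0.80 for miR-27b. Depth limits miR-24 and miR-27b most, whose counts came within 3-fold of the background limit.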

Other observations

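Another pair of miRNAs with a shared seed, miR-99a and miR-99b, also had slopes of opposite sign on the ligation controls. Only the slope of miR-99a passed. The pair was chosen after its values were seen, and some other relatives had like slopes. miR-29a, miR-29b and miR-29c had slopes of 0.45, 0.57 and 0.55. The let-7 probes took both signs, and none of their slopes passed. They were 0.18 (let-7a), 0.08 (let-7b), 0.20 (let-7c), 0.21 (let-7e) and 0.25 (let-7f), but -0.19 (let-7d), -0.04 (let-7g) and -0.10 (let-7i). miR-99a and miR-99b share a seed and differ at 4 of 22 bases, A1C, U11A, U16C and U21C, counted from the 5′ end of miR-99a.
miR-99a: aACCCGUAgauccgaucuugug
miR-99b: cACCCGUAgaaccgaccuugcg
miR-99a fell with the ligation controls within groups (slope -0.31, SE 0.08, adjusted p = 0.0296 in edgeR's test), and miR-99b had a slope of 0.34 (SE 0.12, adjusted p = 0.0673). miR-30c and miR-30b, the probes most like miR-27a and miR-24, also went apart, with slopes of -0.41 (adjusted p = 0.0116) and 0.44 (adjusted p = 0.0334) in edgeR's test. In MS-275 against OGD the same probes had log2 fold changes of -0.48 for miR-99a, 0.34 for miR-99b, -0.51 for miR-30c and 0.20 for miR-30b, none of which passed the threshold. In the miR-27 and miR-99 pairs the miRNA with the negative slope had the higher count, on probes whose yields may differ. miR-27a had a mean of 6945 normalised counts against 200.1 for miR-27b, and miR-99a 4606 against 447 for miR-99b. Over all 217 probes, slope and mean level had a Spearman rho of -0.05 across probes, which are not independent replicates.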
